A study of Mus musculus with 12 samples.

Results

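The comparison described here sets B1 cells of the peritoneal cavity against follicular (FO) B cells of the spleen in old mice. Its members are the 3 arrays titled as old B1a cells, which the tissue label places in the peritoneal cavity, and the 3 titled as old FO cells of spleen, 6 of the 12 arrays of the series. All were chosen by title alone. Per the labels, both groups came from female C57BL/6 mice older than 15 months, with no transgene and no treatment named. The sample titles say B1a and the cell type field says B1. The organ differs with the cell type, so the effects of cell type and of organ cannot be told apart. Cells were sorted by flow cytometry and not cultured, and their RNA, extracted with a picoPure kit, was hybridised as biotinylated cRNA to Affymetrix mouse arrays. The surface markers of the sort are not named, and nothing says that the replicates are separate mice, so each p-value reflects only how far these samples spread, which may be technical. The other 6 arrays hold peritoneal B1 cells of mice aged 8 weeks (young B1) and splenic age-associated B cells (ABC) of mice older than 15 months. They entered the estimate of the spread and are quoted beside the main values. These other arrays correlated more closely within their groups than the compared ones, so the shared estimate may understate the spread of the compared groups.

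B1 cells are a self-renewing lineage that arises largely before and around birth, lives mainly in the body cavities, responds to innate signals and secretes natural antibody. FO cells are the recirculating B cells of the spleen and lymph nodes, which present antigen to helper T cells and enter germinal centres. Textbook markers separate them: B1a cells carry CD5, CD43 (Spn) and, in the peritoneum, CD11b (Itgam), while FO cells carry CD21 (Cr2) and CD23 (Fcer2a).

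Levels below are log2 of the deposited intensity. Differences are old B1 minus old FO with the standard error from limma, n is 3 arrays per group, and genes whose adjusted p (Benjamini-Hochberg, over all 18193 genes) was under 0.05 were called. In each group 1 array stood apart. The 75th percentile of intensity was 346 on old B1 replicate 3 and 378 on old FO replicate 2, against 400.1 to 412 on the other 10 arrays. Old B1 replicate 3 had a mean correlation of 0.942 with the other arrays of its group, and old B1 replicates 1 and 2 had 0.969 and 0.968. Levels of one gene are not set against those of another, since each probe set has its own response.

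Old B1 and old FO cells differed in 2988 of the 18193 genes, or 16.4%. Of these, 1529 (8.4%) were higher and 1459 (8.02%) lower in B1 cells. These shares of all genes are the background for every list count in this report. At least 2-fold differences were fewer, 1539 genes (8.46%), and 986 of them (5.42%) were higher and 553 (3.04%) lower in B1 cells. The imbalance grew with size: a log2 difference of at least 3 was reached by 248 called genes on the higher side and 69 on the lower side, and one of at least 5 by 45 and 6. The 3 B1 values did not overlap the 3 FO values in 5261 genes (28.9%), and the median difference of all genes was -0.04. The balance of all called genes turned with the scaling: 1404 were higher and 1823 lower with each array centred on its median, 1532 and 2017 with a repeated quantile normalization, and 1903 and 1219 with cyclic loess. At least 2-fold differences kept more higher than lower genes under these scalings, with 953 and 615, 934 and 714, and 1113 and 468. Leaving out both arrays that stood apart gave 2167 higher and 1841 lower genes.

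**Figure D1:**
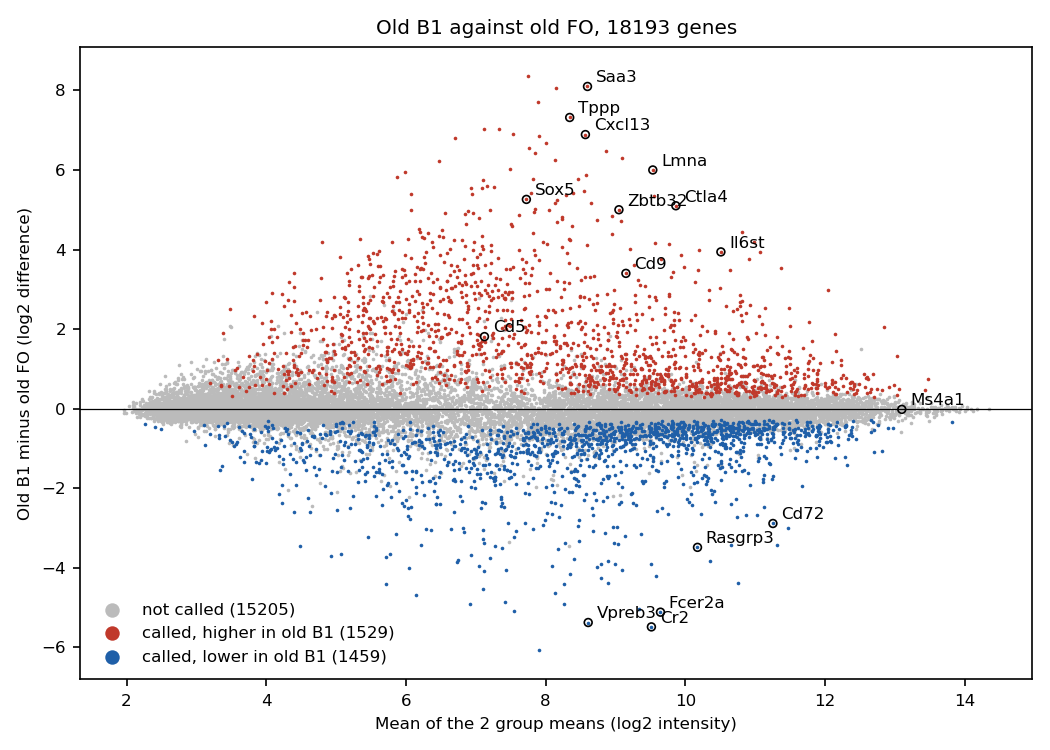
Log2 difference between old B1 and old FO cells (vertical axis) against the mean of both group means in log2 intensity (horizontal axis), 1 point per gene. The 1529 genes called higher in B1 cells (red) reach a difference of 8.37 and the 1459 called lower (blue) reach -6.08, while Ms4a1, a gene of all mature B cells, lies near 0 at -0.02.

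The labelled identities were checked against defining genes first. Ms4a1, which encodes CD20, was at 13.06, 13.02 and 13.19 on the B1 arrays and at 13.05, 13.16 and 13.12 on the FO arrays. Cd79a, the alpha chain of the B cell receptor complex, was at 13.22 to 13.24 in B1 and 13.31 to 13.37 in FO cells. Neither was called (-0.02 ± 0.08, adjusted p = 0.911, and -0.12 ± 0.08, adjusted p = 0.416), and both genes were bright on all 6 arrays. Cd5, the inhibitory scavenger receptor for which B1a cells are named, was at 8.64, 8.70 and 6.76 in B1 cells and at 5.89, 6.60 and 6.17 in FO cells. The lowest B1 array, replicate 3, was only just above the highest FO array. Cd5 was higher in B1 cells by 1.81 ± 0.43 (adjusted p = 0.0149), but the call was lost without old B1 replicate 1 (adjusted p = 0.0531), old FO replicate 1 (0.0627) or old FO replicate 3 (0.0514). Without old B1 replicate 3 the difference was 2.45. Spn was higher by 1.51 ± 0.32 and Itgam by 2.59 ± 0.31, with adjusted p = 0.00911 and 0.00026. The B1 arrays were thus the higher ones for each of these defining markers.

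Markers of other cell types were also measured on the B1 arrays, and several are among the largest differences. Of 14 measured macrophage and monocyte markers, all 14 were higher in B1 cells, 0 were lower, and the median difference was 3.03 (16.4% of all genes were called). Lyz2, lysozyme, was at 13.51, 13.44 and 12.29 in B1 cells and at 8.03, 8.58 and 10.03 in FO cells, a difference of 4.20 ± 0.48 (adjusted p = 0.00019). The complement gene C1qc was at 10.84, 10.62 and 8.01 against 4.30, 5.20 and 6.19, a difference of 4.59 ± 0.72 (adjusted p = 0.00137), or 5.50 without old B1 replicate 3. The B1 arrays were higher throughout, and replicate 3 was the lowest of them in both genes. The log2 of the summed intensity of the 14 markers ran from 13.63 to 14.86 in B1 and from 10.18 to 11.61 in FO cells, and reached 13.93 to 14.69 in young B1 and 14.03 to 14.18 in ABC. Without both arrays that stood apart, 13 of the 14 were higher.

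Large peritoneal macrophages have markers of their own, and 11 of 14 were higher, 1 (Icam2) was lower and 2 (Gata6 and Cd93) were not called, with a median of 3.33. Gata6 was dim in both groups, at 4.34, 4.02 and 4.54 in B1 and at 4.39, 4.80 and 3.84 in FO cells. Cd93 differed by -1.11 ± 0.52 (adjusted p = 0.19 by limma). Fn1, fibronectin, was at 12.06, 12.22 and 8.89 in B1 and at 4.08, 4.36 and 5.46 in FO cells, with a difference of 6.43 ± 0.76 (adjusted p = 0.00022). Prg4, lubricin, was at 11.69, 11.52 and 8.92 against 5.67, 3.64 and 5.49, a difference of 5.78 ± 0.73 (adjusted p = 0.00035). In both genes the groups did not overlap, and B1 replicate 3 lay well below its group. Without it Fn1 differed by 7.51 and Prg4 by 6.67, without old B1 replicate 2 Fn1 differed by 5.84, and without old FO replicate 2 Prg4 differed by 5.13. Vsig4, a complement receptor of resident macrophages, was at 9.92, 9.96 and 6.47 in B1 cells and between 3.31 and 3.49 in FO cells. Its FO values lay under the 25th percentile of each array, so its difference of 5.40 ± 0.78 has no exact size (6.56 without old B1 replicate 3, 4.81 without replicate 2). The log2 summed level of the 14 markers was 13.11 to 14.66 in B1 and 12.04 to 12.25 in FO cells. Their part in the results below was not tested.

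Mast cells are the other resident cells of the cavity with a list here. Of 10 mast cell markers, 6 were higher, 0 were lower and 4 were not called, with a median of 3.15. Mcpt4, a chymase of connective tissue mast cells, was at 9.61, 9.15 and 8.12 in B1 cells and at 2.56, 2.97 and 3.51 in FO cells, where it lay under the 25th percentile of each array, so its difference has no exact size (5.95 ± 0.68, adjusted p = 0.00017). Cpa3, carboxypeptidase A3, was at 10.46, 9.77 and 8.85 against 4.02, 4.27 and 4.18 (5.54 ± 0.74, adjusted p = 0.0005). The log2 summed level was 11.04 to 12.32 in B1 and 7.95 to 8.08 in FO cells, and Tpsab1 lay under the 25th percentile on all B1 arrays. Cma1 and Tpsb2, further mast cell proteases, were higher by 5.57 ± 0.65 and 3.98 ± 0.52. In bulk samples such as these, fewer cells of a type and less RNA per cell cannot be told apart, for these markers and for every gene below.

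Of the other cell types, mesothelial and stromal markers gave 4 higher (Krt18, Krt8, Sparc and Col3a1), 0 lower and 11 not called (median 0.32). Their log2 summed level was 12.61 to 13.29 in B1 and 8.10 to 8.45 in FO cells, while the defining mesothelial genes Msln, Wt1 and Lrrn4 lay under the 25th percentile on all 3 B1 arrays. Among 11 dendritic cell markers 3 were higher (Sirpa, Ccr9 and Batf3), 1 lower (Flt3) and 7 not called, with a median of 0.25 and log2 sums of 12.40 to 12.49 in B1 and 10.41 to 10.95 in FO cells. T cell markers gave 1 higher (Cd2), 0 lower and 10 not called among 11 (median -0.56, log2 sums 13.37 to 13.68 in B1 and 12.95 to 13.28 in FO cells). Among 6 eosinophil and basophil markers 1 was higher (Il5ra, which B1 cells also express), 1 lower (Prg2) and 4 not called (median 0.44, sums 10.76 to 11.11 against 9.04 to 9.33). Among 8 erythroid and platelet markers 1 was higher (Pf4), 2 lower (Ppbp and Gp9) and 5 not called (median -0.44, sums 8.67 to 11.04 against 8.42 to 9.06). None of 9 NK and innate lymphoid markers was called by limma (median -0.01, sums 8.64 to 10.96 against 9.89 to 10.22, 1 with an unadjusted p under 0.05), and neither was any of 11 neutrophil markers (7 with an unadjusted p under 0.05). Without both arrays that stood apart, 2 NK, 3 T cell and 1 neutrophil markers were higher, and old B1 replicate 3 differed from the mean of replicates 1 and 2 by a median of -2.03 over the NK list. The neutrophil sums were 7.93 to 8.93 in B1 and 8.95 to 13.30 in FO cells, with a median difference of -1.62. S100a9, a calcium-binding protein of neutrophils, was at 7.71, 10.06 and 12.44 on the FO arrays and between 5.14 and 7.48 on the B1 arrays, and FO replicate 3 was the highest. Its difference of -3.46 ± 1.12 was not called (adjusted p = 0.0605).

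Old B1 replicate 3 held less of many of these transcripts than the other B1 arrays. Against the mean of replicates 1 and 2 it differed by a median of -1.39 on the log2 scale over the macrophage list, -2.27 over the large peritoneal macrophage list, -1.19 over the mast cell list and -2.14 over the T cell list, while the median of all genes was -0.07. Not every list or marker followed: the median was 0.08 for mesothelial and stromal and -0.08 for eosinophil and basophil markers, and the macrophage markers Cd68 and Mrc1 were higher on replicate 3, by 1.02 and 0.47. B cell lists also varied on this measure, from 1.69 for cell cycle genes to -0.64 for homing receptors. Between them lay 0.45 for the purinergic list, 0.07 for the B1 transcription factors, -0.31 for B1 markers and -0.60 for cytokine receptors. The 553 genes at least 2-fold lower in B1 cells had a median of -0.68. A named gene is given below with its difference without this array where leaving it out moved a called difference by over 1.5 times.

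**Figure D2:**
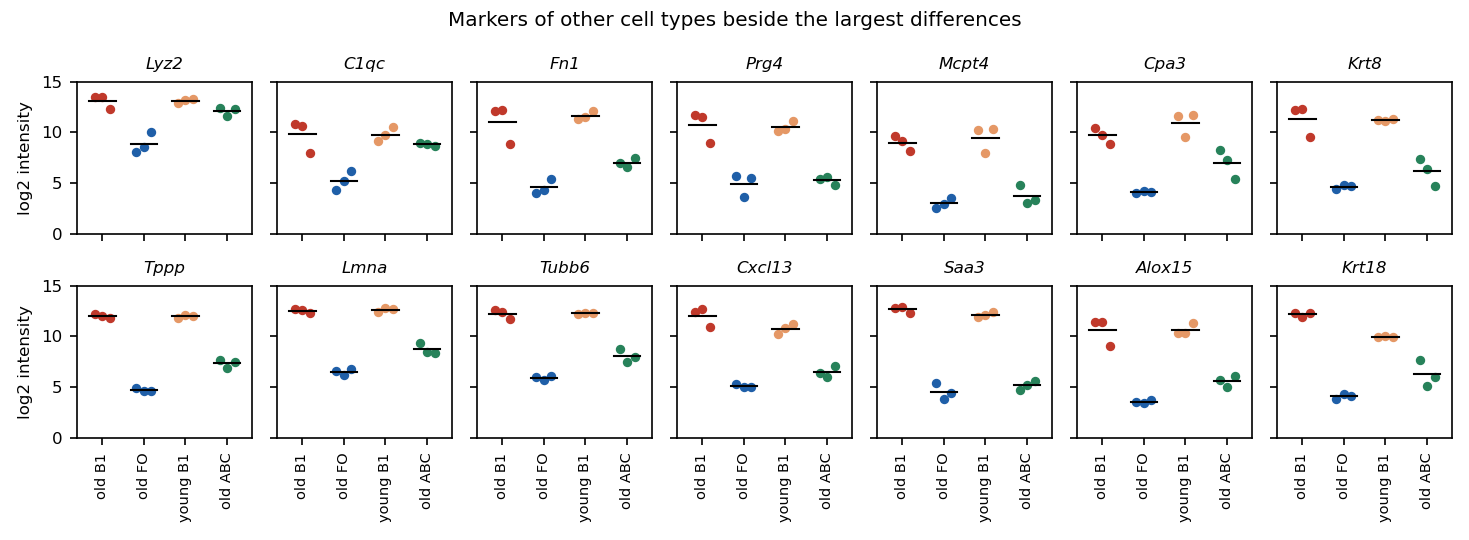
Log2 intensity (vertical axis) of 14 genes on each array of the 4 groups, with points for arrays in replicate order from left to right and a bar for the group mean. Markers of macrophages (Lyz2, C1qc, Fn1, Prg4), of mast cells (Mcpt4, Cpa3) and Krt8 are lower on the right-hand old B1 point, replicate 3, which has Fn1 at 8.89, whereas Tppp and Lmna stay above 11.8 on all 3 old B1 arrays.

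Several transcription factors of the B1 lineage were among the genes higher in B1 cells. Of 15 measured, 7 were higher, 3 were lower and 5 were not called, and the median was 0.87 against -0.04 for all genes. Sox5, a high-mobility-group factor, was at 10.39, 10.22 and 10.46 in B1 and at 4.56, 5.65 and 5.07 in FO cells, a difference of 5.26 ± 0.23 (adjusted p = 5.1e-07). Zbtb32, a BTB zinc finger repressor, was at 11.62, 11.62 and 11.41 against 6.02, 7.39 and 6.24 (5.0 ± 0.30, adjusted p = 2.1e-06). The groups were far apart, the FO values spread more than the B1 values, and B1 replicate 3 sat with the other B1 arrays. All 7 probe sets of Sox5 had positive differences, from 0.85 to 5.26, and 6 of them passed the test. The other probe set of Zbtb32, dim at means of 3.81 in B1 and 3.68 in FO cells, differed by 0.13. Bhlhe41, a basic helix-loop-helix repressor needed for B1 cell self-renewal, was at 8.55, 8.29 and 8.27 against 5.30, 4.72 and 5.72 (3.12 ± 0.26, adjusted p = 2e-05). Young B1 cells had mean levels of 10.17, 11.47 and 8.27 for the 3 genes. For Bhlhe41 the ABC mean was 8.21, near the old B1 mean of 8.37, so its high level was not particular to B1 cells.

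Prdm1, which encodes Blimp-1, was higher by 2.48 ± 0.48, Arid3a by 1.71 ± 0.34, Nfatc1 by 1.26 ± 0.28 and Zeb2 by 1.05 ± 0.18. FO replicate 2 was above the other FO arrays for Prdm1, 8.22 against 6.32 and 6.06, and without it the difference was 3.15. The call of Nfatc1 was lost without FO replicate 3 (adjusted p = 0.051). The 3 lower members were Tbx21 (T-bet), Runx3 and Bhlhe40. Tbx21, a factor of type 1 responses, was at 6.05, 6.75 and 5.89 in B1 and 8.52, 8.63 and 8.35 in FO cells, so B1 cells held the lower level (-2.27 ± 0.25, adjusted p = 0.00014). Runx3 was lower by 2.49 ± 0.45 and Bhlhe40, the paralog of Bhlhe41, by 2.66 ± 0.51. Both were lowest on B1 replicate 3, at 6.02 and 6.83, and without it the differences were -1.78 and -1.86.

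Surface and other markers of B1 cells moved together: 11 of 13 were higher, 0 were lower and 2 were not called, with a median of 1.81. Ctla4, an inhibitory receptor that binds CD80 and CD86, was at 12.43, 12.67 and 12.15 in B1 cells and at 6.75, 8.34 and 6.85 in FO cells (5.10 ± 0.45, adjusted p = 2.9e-05). Cd9, a tetraspanin, was at 10.62, 10.76 and 11.17 against 7.21, 8.02 and 7.14 (3.40 ± 0.23, adjusted p = 5.2e-06). In both genes the lowest B1 array lay more than 2 log2 units above the highest FO array. Il5ra, the alpha chain of the interleukin 5 receptor, on which B1 cells depend, was higher by 2.09 ± 0.47, the phosphatase Ptpn22 by 2.07 ± 0.16 and Cd44, the hyaluronan receptor, by 1.81 ± 0.20. Itgam is also a macrophage marker. Pdcd1lg2, the PD-1 ligand PD-L2 carried by a subset of B1 cells, was at 9.89, 9.18 and 10.51 in B1 and at 9.50, 9.24 and 9.06 in FO cells. The groups overlapped and the gene was not called (0.59 ± 0.31, adjusted p = 0.244).

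**Figure D3:**
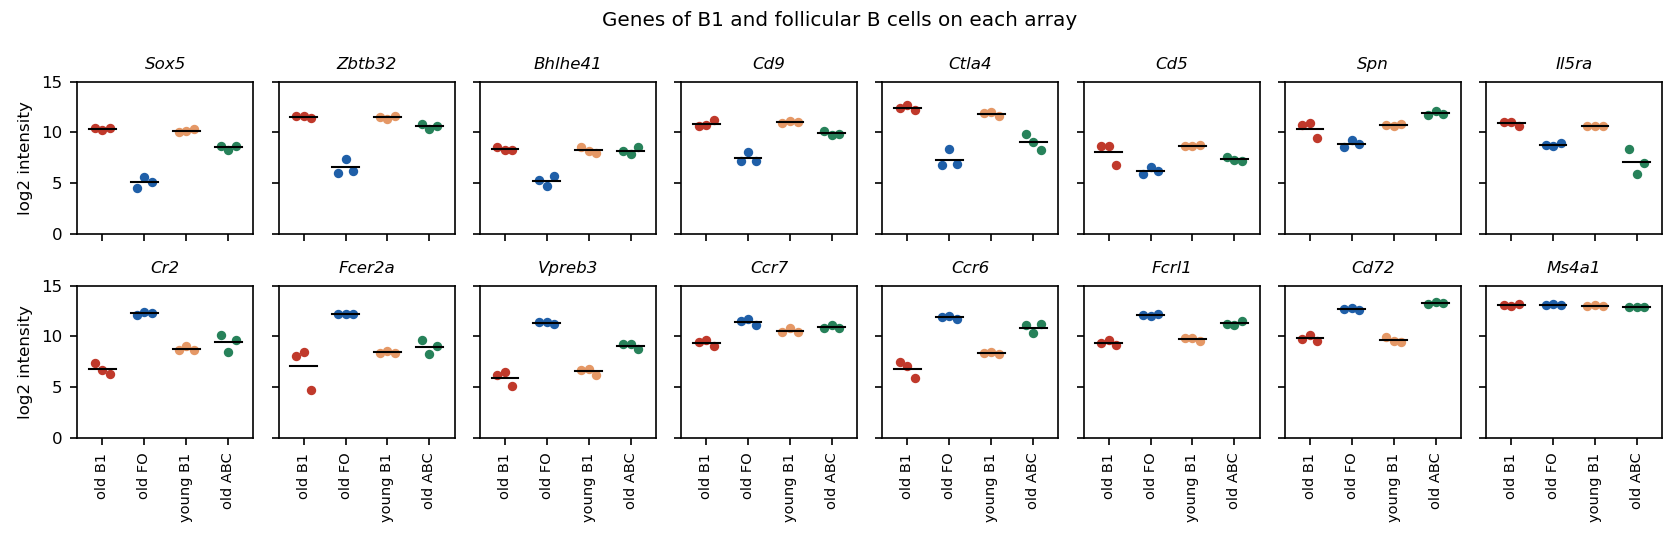
Log2 intensity (vertical axis) of 16 genes on each array of the 4 groups, points for arrays in replicate order and a bar for the group mean. The upper row holds B1 cell genes, with Sox5 at 10.22 to 10.46 in old B1 and 4.56 to 5.65 in old FO cells, and the lower row holds FO genes and Ms4a1, with Cr2 at 6.25 to 7.39 in old B1 and 12.12 to 12.39 in old FO cells.

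Follicular genes went the other way. Of 11 measured follicular markers, 0 were higher, 8 were lower in B1 cells and 3 were not called, with a median of -1.0. Cr2, complement receptor CD21, was at 7.39, 6.66 and 6.25 in B1 cells and at 12.12, 12.39 and 12.26 in FO cells (-5.49 ± 0.40, adjusted p = 7.3e-06). Fcer2a, the IgE receptor CD23, was at 8.02, 8.51 and 4.74 against 12.15, 12.22 and 12.24. Every B1 array was below every FO array, and B1 replicate 3 was far below the other B1 arrays. The difference of Fcer2a was -5.12 ± 0.78 (adjusted p = 0.00125), -3.94 without B1 replicate 3 and -5.83 without B1 replicate 2. Vpreb3, a chaperone-like protein of immature and transitional B cells, was at 6.19, 6.50 and 5.08 against 11.37, 11.37 and 11.17 (-5.38 ± 0.32, adjusted p = 2e-06). Fcrl1, an Fc receptor-like coreceptor, was lower by 2.73 ± 0.15 and Ccr7, the receptor that guides cells to T cell zones, by 2.07 ± 0.19. Il4ra (-0.86 ± 0.13), Btla (-0.67 ± 0.09) and Cd55 (-1.0 ± 0.19) differed less. Cxcr5, the receptor that guides B cells into follicles, was not called (0.37 ± 0.23, adjusted p = 0.347). Without both arrays that stood apart it was called higher in B1 cells, and 8 follicular markers were lower.

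Factors of the resting follicular state showed the same direction. Among 14, 1 was higher (Tsc22d3), 7 were lower and 6 were not called, with a median of -0.49. Satb1, a chromatin organiser, was at 8.64, 7.95 and 5.85 in B1 cells and at 11.57, 11.77 and 11.75 in FO cells. It differed by -4.21 ± 0.57 (adjusted p = 0.00056), by -3.40 without B1 replicate 3 and by -4.80 without B1 replicate 1, and on each array the B1 cells were lower. Id3, an inhibitor of E proteins, was lower by 2.27 ± 0.43, Zfp318, which permits IgD splicing, by 1.75 ± 0.12, Bach2, a repressor of plasma cell fate, by 1.68 ± 0.27, and Lef1 by 1.43 ± 0.20. Hhex and Foxo1 were each lower by 0.68, with errors of 0.11 and 0.13. Klf2, a factor of quiescence and trafficking, was at 11.98, 12.02 and 10.87 in B1 and at 12.03, 10.94 and 11.92 in FO cells. The outlying low value in each group was on the array that stood apart, and the gene was not called (-0.01 ± 0.33, adjusted p = 0.995).

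Promoter windows of RefSeq (GRCm38.p6), from 250 bases before to 50 bases after each gene's start, are printed for members with the largest falls in which a B cell motif was found, and for Bhlhe41. The core ATGCAAA of the octamer, searched on both strands and hence also as TTTGCAT, is bound by Oct-1 and Oct-2. It was present in the windows of Vpreb3, Ccr6 and Crisp3, 3 of the 10 called genes with the largest falls, and in those of 0 of the 9 genes with a window among the 10 with the largest rises. The falls had 15 windows and the rises 10. Of the other motifs searched, described below, the CACCC box was in windows of 5 falling and 5 rising genes, the SOX core in those of 1 and 1, and the E-box in those of 1 (Tmem108) and 0. The E-box CACGTG, which reads alike on both strands, was found in the window of Bhlhe41, whose protein binds such E-boxes. Capitals mark the motif.
Vpreb3, chr10:75948050-75948349, + strand: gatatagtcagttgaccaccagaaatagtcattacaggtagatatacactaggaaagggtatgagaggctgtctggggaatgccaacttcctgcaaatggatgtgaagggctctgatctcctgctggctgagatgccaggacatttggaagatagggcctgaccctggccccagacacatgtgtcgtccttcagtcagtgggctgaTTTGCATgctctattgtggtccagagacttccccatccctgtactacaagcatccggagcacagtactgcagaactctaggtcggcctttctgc
Ccr6, chr17:8235793-8236092, + strand: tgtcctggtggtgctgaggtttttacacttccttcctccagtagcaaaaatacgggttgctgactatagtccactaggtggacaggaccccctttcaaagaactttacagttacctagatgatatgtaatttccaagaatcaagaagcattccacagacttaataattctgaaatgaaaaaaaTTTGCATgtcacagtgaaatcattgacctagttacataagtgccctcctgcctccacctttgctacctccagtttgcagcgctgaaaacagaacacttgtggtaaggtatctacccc
Crisp3, chr17:40242239-40242538, - strand: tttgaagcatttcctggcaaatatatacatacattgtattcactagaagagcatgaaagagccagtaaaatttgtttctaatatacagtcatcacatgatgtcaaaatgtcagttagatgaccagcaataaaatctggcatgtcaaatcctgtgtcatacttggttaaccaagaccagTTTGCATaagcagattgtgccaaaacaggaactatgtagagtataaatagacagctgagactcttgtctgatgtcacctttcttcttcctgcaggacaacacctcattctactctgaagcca
Bhlhe41, chr6:145865371-145865670, - strand: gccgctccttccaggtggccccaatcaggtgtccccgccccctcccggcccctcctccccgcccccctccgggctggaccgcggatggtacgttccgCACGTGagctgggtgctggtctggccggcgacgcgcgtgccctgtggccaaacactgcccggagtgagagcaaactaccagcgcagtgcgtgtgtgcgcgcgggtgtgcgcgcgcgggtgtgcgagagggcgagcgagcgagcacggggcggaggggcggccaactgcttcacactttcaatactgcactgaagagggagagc
The octamer begins 44 bases before the start of Vpreb3, 67 before that of Ccr6 and 72 before that of Crisp3, and the E-box 153 before that of Bhlhe41. The second window of Ccr6 in the table held no octamer. The octamer was in 4.63% of all 32851 windows, against 3.85% of the windows of all genes tested, 3.84% of those of genes at least 2-fold higher and 5.33% of those of genes at least 2-fold lower in B1 cells. The E-box was held by 7.15% of all windows, 8.72% of those of genes tested, 7.87% of those of higher and 10.7% of those of lower genes. For a Krüppel-like CACCC box the shares were 57.5%, 63.0%, 66.2% and 65.3%, and for the SOX core AACAAT 10.7%, 7.29%, 7.58% and 6.07%, each searched on both strands. These matches describe letters in the windows, with no test of the shares.

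Genes of general B cell identity had a median difference near 0, but a larger share of them was lower than the 8.02% of all genes. Of 13, 1 was higher (Blk), 5 were lower and 7 were not called, with a median of -0.06. The largest fall was that of Cd72, an inhibitory coreceptor, at 9.78, 10.13 and 9.53 in B1 and 12.67, 12.79 and 12.64 in FO cells (-2.89 ± 0.16, adjusted p = 1.6e-06). Its groups lay more than 2 log2 units apart, and ABC reached a mean of 13.28. Pax5, the commitment factor of the lineage, was at 5.41, 5.33 and 4.40 against 6.91, 5.67 and 6.44. It was lower by 1.30 ± 0.34 (adjusted p = 0.0237), a call lost without FO replicate 1 (adjusted p = 0.0941) or FO replicate 3 (0.078). The other Pax5 probe set differed by -0.43 and did not pass the test. Both read near the median of all probe sets, 5.53, so the reading of this gene is weak. Fcmr, the IgM Fc receptor, was lower by 0.62 ± 0.14, Cd22 by 0.59 ± 0.10 and Ebf1 by 0.53 ± 0.13. The call of Ebf1 was lost without B1 replicate 1, FO replicate 2 or FO replicate 3 (adjusted p = 0.0596, 0.0636 and 0.0892). Its other probe sets gave larger falls, from -0.73 to -1.95, and all of them passed the test. The call of the kinase Blk (0.42 ± 0.11, adjusted p = 0.0245) was lost when any single array other than B1 replicate 3 was left out (adjusted p from 0.0547 to 0.0819).

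Among 4 measured immunoglobulin constant genes, Igha, the heavy chain of IgA, was lower, 0 were higher and 3 were not called (median -0.96). Igha was at 7.64, 7.75 and 5.76 in B1 and 10.01, 11.74 and 11.10 in FO cells, lower on every B1 array (-3.90 ± 0.54, adjusted p = 0.00065, and -3.26 without B1 replicate 3). Ighm, the IgM heavy chain, was at 13.40 to 13.76 in B1 and 13.62 to 13.84 in FO cells and was not called (-0.14 ± 0.11, adjusted p = 0.47). Its 11 probe sets disagreed, from 0.19 to -5.62, and some of them may read variable segments or other transcripts, so its level is uncertain.

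Signal transduction from the B cell receptor gave 1 higher (the kinase Syk, 0.54 ± 0.10), 4 lower and 12 not called among 17 genes, with a median of -0.18. Rasgrp3, a Ras activator downstream of the receptor, was at 8.25, 8.09 and 8.96 in B1 and at 11.79, 12.11 and 11.85 in FO cells (-3.49 ± 0.23, adjusted p = 4.2e-06). Vav3 was lower by 2.09 ± 0.48 (-1.45 without B1 replicate 3) and Pik3ap1, an adaptor to PI3 kinase, by 1.81 ± 0.22. Ptprc was the fourth lower gene. Inhibitory receptors and phosphatases gave 5 higher, 1 lower and 7 not called among 13 (median 0.06). Cd300a was higher by 2.58 ± 0.27, Cd200r1 by 1.63 ± 0.26, Pirb by 1.29 ± 0.14 and Lair1 by 1.14 ± 0.18, and Cd274 (PD-L1) was the fifth. These receptors are also made by macrophages or mast cells. Ptpn6, the phosphatase SHP-1, was lower by 0.53 ± 0.10. Among 13 marginal zone and Notch2 genes, 2 were higher (Mzb1, 0.79 ± 0.15, and Rbpj), 2 were lower (Cd1d1 and Hes1) and 9 were not called, with a median of -0.14.

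Homing receptors split. Of 16, 3 were higher, 4 were lower and 9 were not called (median 0.12), and without both arrays that stood apart 7 were higher and 3 lower. Ccr6, the receptor of the mucosal chemokine CCL20, was at 7.49, 7.12 and 5.86 in B1 and at 11.89, 11.98 and 11.70 in FO cells (-5.03 ± 0.36, adjusted p = 7.6e-06). Ccr1 was at 10.40, 10.51 and 9.75 against 6.55, 7.93 and 6.26 (3.31 ± 0.45, adjusted p = 0.00059). The B1 arrays were all low for Ccr6 and all high for Ccr1. Ccr2, a monocyte receptor on the macrophage list, was higher by 3.29 ± 0.54 and Ccr9, the gut-homing receptor, by 2.54 ± 0.48. Cxcr3 was lower by 1.67 ± 0.36 and P2ry10 by 1.14 ± 0.20, and Gpr183 (EBI2) was the fourth lower gene. S1pr1, which lets lymphocytes leave tissues, differed by 0.07 ± 0.12 (adjusted p = 0.771).

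Integrins and adhesion molecules gave 4 higher, 5 lower and 7 not called among 16, with a median of 0.08. Itgb1, the beta-1 chain of many matrix-binding integrins, was at 11.62, 11.52 and 12.09 in B1 and at 8.36, 8.99 and 8.30 in FO cells (3.19 ± 0.19, adjusted p = 2.3e-06), with no overlap and with B1 replicate 3 the highest. Itgb7, which pairs with alpha-4 in gut homing, was higher by 0.78 ± 0.14, and Itga6 and Cdh17 were the other higher genes. Itgb3 was at 7.33, 6.61 and 4.23 against 10.02, 10.96 and 10.43, lower by 4.41 ± 0.62 (-3.50 without B1 replicate 3, -5.05 without B1 replicate 1). Vcam1 was lower by 3.46 ± 0.35 and lay under the 25th percentile on all B1 arrays, so the size is not exact. Its other probe sets differed by -0.25 and -0.27 and did not pass the test. Alcam was lower by 0.75 ± 0.14, and Icam1 and Icam2 were lower too.

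Among 18 chemokines and cytokines 2 were higher in B1 cells, 6 were lower and 10 were not called, with a median of -0.70 (4 higher and 6 lower without both arrays that stood apart). Cxcl13, which attracts B cells through Cxcr5, was at 12.42, 12.67 and 10.95 in B1 and at 5.35, 4.99 and 5.04 in FO cells (6.89 ± 0.45, adjusted p = 3.7e-06). All B1 arrays were far above all FO arrays, and replicate 3, which was low in macrophage markers, was the lowest of them. Peritoneal macrophages are known to make Cxcl13, and their part in this difference was not tested. Il10, an anti-inflammatory cytokine that B1 cells can secrete, was at 8.66, 7.12 and 8.82 in B1 and at 4.47, 7.12 and 5.01 in FO cells. The lowest B1 and the highest FO array met at 7.12. Its difference of 2.67 ± 0.70 (adjusted p = 0.0257) was not called without B1 replicate 1, B1 replicate 3, FO replicate 1 or FO replicate 3 (adjusted p = 0.0763, 0.0587, 0.104 and 0.0962), and was 3.46 without FO replicate 2.

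Lta, lymphotoxin alpha, was at 6.72, 6.83 and 6.01 in B1 and at 10.42, 10.14 and 10.34 in FO cells (-3.78 ± 0.21, adjusted p = 1.4e-06). Il12a was lower by 2.81 ± 0.34, Cxcl10 by 1.52 ± 0.27 and Tgfb1 by 0.77 ± 0.13, and Ltb and Tnf completed the 6. Lta and Ltb together encode the lymphotoxin that FO cells use to maintain follicular stroma.

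Receptors for cytokines set the groups apart in both directions, with 5 higher, 6 lower and 12 not called among 23 and a median of -0.20 (9 higher and 7 lower without both arrays that stood apart). Il6st, the gp130 chain shared by the interleukin 6 family, was at 12.44, 12.44 and 12.57 in B1 and at 8.53, 8.72 and 8.37 in FO cells (3.94 ± 0.22, adjusted p = 1.4e-06). Csf2rb, the chain through which interleukin 5 signals, was at 12.45, 12.26 and 12.46 against 8.56, 9.47 and 8.67 (3.49 ± 0.44, adjusted p = 0.00034). Neither was lower on B1 replicate 3 than on both other B1 arrays. Cish, a STAT5-induced feedback inhibitor, was higher by 3.03 ± 0.32 and Il6ra by 1.72 ± 0.23. Csf1r, the macrophage growth factor receptor, was at 11.62, 11.51 and 8.30 against 7.01, 7.01 and 8.44. B1 replicate 3 fell below the highest FO array, and the call (2.99 ± 0.78, adjusted p = 0.0252) was lost without B1 replicate 1 or 2 or FO replicate 1 or 2 (adjusted p = 0.0828, 0.0801, 0.0921 and 0.0726). Without B1 replicate 3 the difference was 4.08.

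Stat4, which transmits interleukin 12 signals, was at 8.30, 7.84 and 5.05 in B1 and at 11.04, 10.92 and 11.41 in FO cells. The B1 arrays were all below the FO arrays (-4.06 ± 0.65, adjusted p = 0.00169, -3.05 without B1 replicate 3 and -4.68 without B1 replicate 1). Il21r was lower by 2.33 ± 0.16, Ifngr2, the second chain of the interferon gamma receptor, by 1.30 ± 0.12, and Il10ra by 1.27 ± 0.24. In the BAFF and TNF receptor family, 4 were higher, 2 were lower and 10 were not called among 16 (median 0.07), or 6 and 4 without both arrays that stood apart. Tnfsf8 (CD30 ligand, 2.72 ± 0.35), Tnfrsf1a (2.70 ± 0.42), Tnfrsf1b (0.96 ± 0.11) and Tnfsf4 were higher, and the death receptor Fas (-2.14 ± 0.25) and Cd40 (-1.22 ± 0.14), which receives T cell help, were lower. Tnfrsf13c, the BAFF receptor, and Tnfrsf13b (TACI) were not called (-0.40 ± 0.13, adjusted p = 0.0657, and 0.36 ± 0.11, adjusted p = 0.0503).

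Genes of antigen presentation and costimulation were more often lower: 2 higher, 8 lower and 8 not called among 18, with a median of -0.24. Icosl, the ligand for ICOS on helper T cells, was at 10.33, 10.23 and 8.21 in B1 and at 12.95, 12.97 and 13.15 in FO cells (-3.43 ± 0.45, adjusted p = 0.00044, and -2.74 without B1 replicate 3). Ciita, the master activator of MHC class II genes, was lower by 1.89 ± 0.24, the protease Lgmn by 1.74 ± 0.24 and H2-Oa, a modulator of peptide loading, by 0.77 ± 0.09. Of the class II genes themselves, H2-Aa (-0.17 ± 0.08, adjusted p = 0.198), H2-Ab1 (-0.30 ± 0.10, adjusted p = 0.0571) and H2-Eb1 (-0.13 ± 0.08, adjusted p = 0.344) were not called. Neither was Cd74, the invariant chain (-0.05 ± 0.08, adjusted p = 0.741). H2-DMa and H2-Ob were among the 8 lower genes. The costimulatory ligand Cd80 was at 10.16, 10.19 and 9.13 in B1 and at 5.81, 6.09 and 5.62 in FO cells, higher on every B1 array (3.99 ± 0.26, adjusted p = 3.7e-06). ABC were high as well, with a mean of 10.22 against 9.83 in old B1 cells. Cd86 was higher by 0.75 ± 0.21 (adjusted p = 0.035), a call lost without B1 replicate 1 (adjusted p = 0.0612) or FO replicate 1, 2 or 3 (0.0707, 0.0715 and 0.115).

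Innate sensing genes gave 6 higher, 2 lower and 13 not called among 21 (median 0.15). Tlr2, the sensor of bacterial lipoproteins, was higher by 1.21 ± 0.15, Pycard, the inflammasome adaptor, by 0.78 ± 0.13, and Cd14, a coreceptor for lipopolysaccharide and a monocyte marker, by 3.20 ± 0.66 (4.17 without B1 replicate 3). Tlr1 was lower by 1.33 ± 0.26 and Tlr12 by 1.24 ± 0.19. Tlr7, the endosomal RNA sensor, was not called (0.39 ± 0.29, adjusted p = 0.442).

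The type I interferon response list had 1 higher (Ifih1), 5 lower and 12 not called among 18, with a median of -0.26. Oasl1 was at 6.19, 5.56 and 4.97 in B1 and at 8.82, 8.45 and 8.63 in FO cells, with the B1 arrays all lower (-3.06 ± 0.29, adjusted p = 5e-05). Usp18, a brake on interferon signalling, was lower by 2.37 ± 0.26 and Stat2 by 0.93 ± 0.16, and Rtp4 and Irf7 were the others. Plasma cell and secretion genes gave 2 higher, 3 lower and 13 not called among 18 (median -0.07). Pdia4 (1.65 ± 0.22) and Creld2 (0.87 ± 0.18), which help proteins fold in the endoplasmic reticulum, were higher. Sdc1, the plasma cell marker CD138, was lower by 2.16 ± 0.30, and Hspa5 and Slamf7 were lower too. Xbp1 and Irf4, factors of secretion and plasma cell fate, were not called (-0.33 ± 0.15 and 0.30 ± 0.17).

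Cytoskeletal genes formed the B cell list with the most higher members: 15 of 22 were higher, 1 was lower and 6 were not called, with a median of 1.21. Tppp, a protein that bundles microtubules, was at 12.18, 12.02 and 11.81 in B1 and at 4.90, 4.58 and 4.58 in FO cells, a difference of 7.32 ± 0.20 (adjusted p = 4e-08). Tubb6, a beta tubulin, was at 12.57, 12.42 and 11.74 against 6.01, 5.71 and 6.12 (6.30 ± 0.30, adjusted p = 7.5e-07). Lmna, which encodes the A-type nuclear lamins, was at 12.70, 12.58 and 12.33 against 6.62, 6.24 and 6.75 (6.00 ± 0.24, adjusted p = 3.9e-07). For all 3 genes the groups were far apart and B1 replicate 3, although lowest, lay close to the other B1 arrays. The calcium-binding S100a4 was higher by 3.93 ± 0.24 and S100a6 by 2.99 ± 0.24, the annexin Anxa2 by 3.76 ± 0.33, the galectin Lgals1 by 2.06 ± 0.13 and the scaffold Ahnak by 1.31 ± 0.13. Csrp2, a LIM protein, was lower by 3.69 ± 0.36. Macrophages also express several of these genes. The log2 summed level of the 22 genes was 16.82 to 16.86 on the B1 arrays and 15.45 to 15.53 on the FO arrays, and the part of macrophage transcripts in it was not tested.

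**Figure D4:**
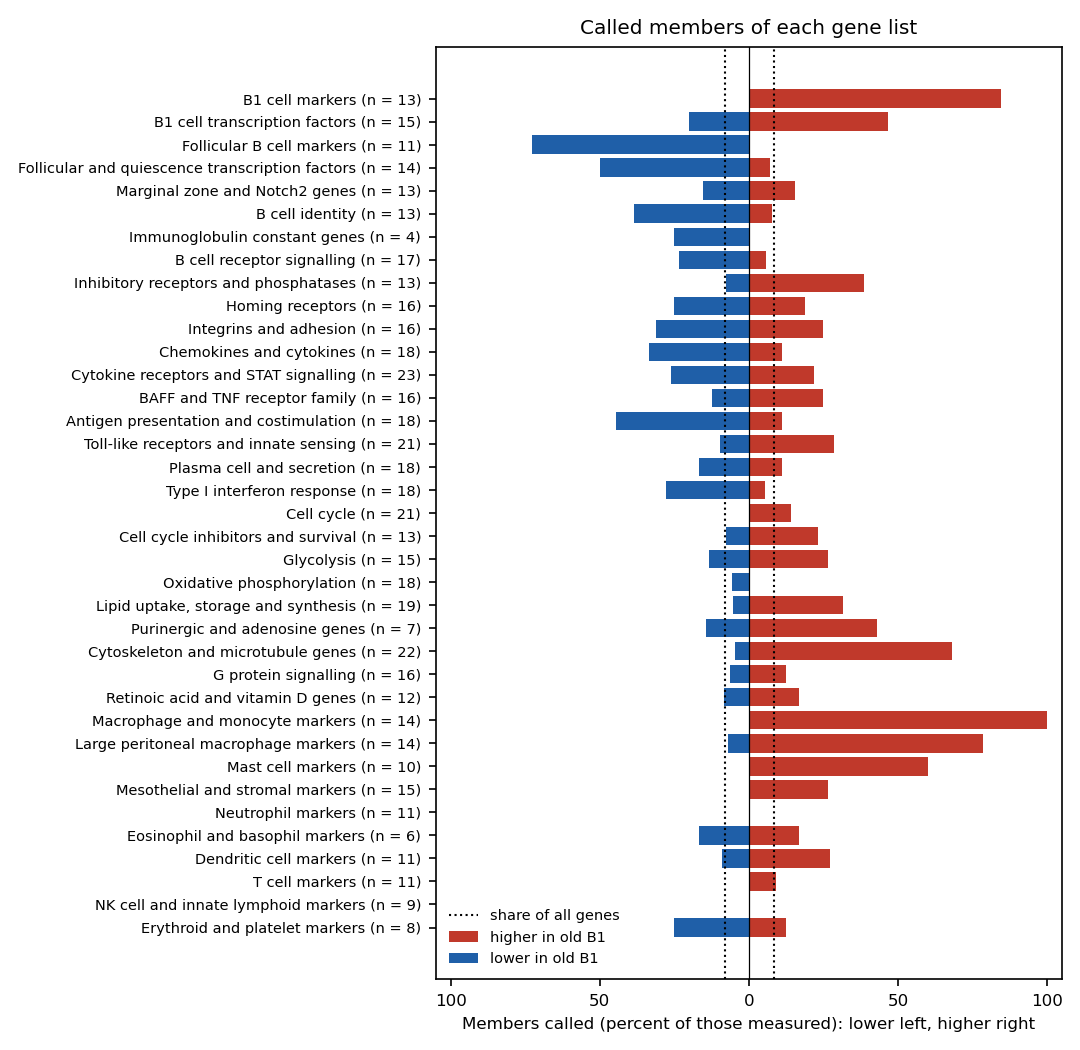
Called members of each of the 37 gene lists as a percent of the members measured (horizontal axis), higher in old B1 to the right and lower to the left, with the number measured beside each name. Dotted lines mark the shares of all genes, 8.4% higher and 8.02% lower. The macrophage list reaches all 14 of its members on the right, and the follicular markers 8 of 11 on the left.

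Proliferation genes were uneven among the B1 arrays. Of 21 cell cycle genes, 3 were higher, 0 were lower and 18 were not called, with a median of 0.63 (5 higher and 1 lower without both arrays that stood apart). The number called lies near the share of all genes, 16.4%. Mki67, the proliferation marker Ki-67, was at 9.07, 8.23 and 11.26 in B1 and at 7.90, 9.77 and 7.69 in FO cells. B1 replicate 3 and FO replicate 2 were the high arrays of their groups, the groups overlapped, and the gene was not called (1.07 ± 0.72, adjusted p = 0.384). Over the list B1 replicate 3 exceeded the mean of replicates 1 and 2 by a median of 1.69, with 13 of 21 genes more than 2-fold higher on it. Ccnd2, the cyclin D by which B1 cells enter the cycle, was at 12.92, 12.73 and 13.00 against 11.25, 11.44 and 11.61 (1.45 ± 0.21, adjusted p = 0.00089), high on all 3 B1 arrays. Ccne1 was higher by 1.06 ± 0.19 and the replication helicase subunit Mcm6 by 0.78 ± 0.16. Cell cycle inhibitors and survival genes gave 3 higher (Cdkn1a, 1.67 ± 0.27, Bbc3 and Cdkn2b), 1 lower (Cdkn2d) and 9 not called among 13 (median 0.19).

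Metabolic genes were described by 3 lists. Of 19 lipid handling genes, 6 were higher, 1 was lower (Srebf1) and 12 were not called, with a median of 0.44. Osbpl3, an oxysterol-binding protein, was at 8.42, 8.41 and 9.48 in B1 and at 3.33, 5.84 and 3.64 in FO cells (4.50 ± 0.55, adjusted p = 0.0003), and the difference was 5.29 without FO replicate 2. Lpl, lipoprotein lipase, was at 9.59, 9.49 and 6.87 against 4.58, 3.98 and 4.37 (4.34 ± 0.64, adjusted p = 0.00099), and 5.22 without B1 replicate 3. B1 replicate 3 was the lowest B1 array for Lpl and the highest for Osbpl3. Fabp4, a fatty acid carrier of macrophages and fat cells, was higher by 4.23 ± 0.76 (5.31 without B1 replicate 3), the lipid droplet protein Plin2 by 1.51 ± 0.25 and the lysosomal lipase Lipa by 1.42 ± 0.12. Glycolysis genes gave 4 higher, 2 lower (Pfkp and Slc2a3) and 9 not called among 15 (median 0.09). Tpi1 was higher by 1.13 ± 0.15, Pfkfb3, which makes an activator of glycolysis, by 1.11 ± 0.16, and Slc16a3 and Hk1 were the others. The oxidative phosphorylation list had 0 higher, 1 lower (Ndufs1) and 17 not called among 18 (median -0.07).

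In the purinergic list of 7 genes, 3 were higher, 1 was lower and 3 were not called (median 0.29). P2rx7, an ATP-gated channel, was at 9.07, 9.13 and 9.62 in B1 and at 6.86, 6.88 and 6.67 in FO cells (2.47 ± 0.21, adjusted p = 2.4e-05). Nt5e, the ectonucleotidase CD73 that makes adenosine, was at 9.40, 9.60 and 8.45 against 5.77, 7.89 and 6.83 (2.32 ± 0.45, adjusted p = 0.00535), and Entpd1 (CD39) was the third. Dpp4, the peptidase CD26, was at 9.85, 10.15 and 8.60 against 12.31, 12.06 and 12.24 (-2.67 ± 0.33, adjusted p = 0.00029). So the B1 arrays were the high ones for P2rx7 and Nt5e and the low ones for Dpp4. Among 16 G protein signalling genes 2 were higher, 1 was lower (Pde4b) and 13 were not called (median -0.51), with 2 higher and 4 lower without both arrays that stood apart. The number called in the main fit lies near the share of all genes, 16.4%. Gnb3, a beta subunit, was at 10.98, 10.29 and 12.47 in B1 and at 4.91, 4.96 and 5.16 in FO cells (6.24 ± 0.60, adjusted p = 5.2e-05, and 5.63 without B1 replicate 3). Ednrb, the endothelin B receptor, was the other. Among 12 retinoic acid and vitamin D genes 2 were higher (Rarg, a retinoic acid receptor, by 2.97 ± 0.32, and Rxra), 1 was lower (Rdh10) and 9 were not called (median -0.03).

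The 10 largest rises among bright genes were those of Zfp811, a zinc finger protein, Saa3, Krt18, Ahnak2, Tppp, Alox15, Gng13, Cxcl13, Robo1 and Ednrb, from 8.37 to 6.81. Zfp811 was at 12.19, 12.20 and 11.41 in B1 and at 4.12, 3.15 and 3.41 in FO cells (8.37 ± 0.51, adjusted p = 2.4e-06), and its other probe set differed by 7.08. Saa3, an acute-phase protein on the large peritoneal macrophage list, was at 12.79, 12.87 and 12.30 against 5.40, 3.83 and 4.42 (8.10 ± 0.37). Krt18, a keratin, was at 12.30, 11.90 and 12.33 against 3.81, 4.36 and 4.16 (8.06 ± 0.48). Of its partner keratin Krt8 the B1 levels were 12.19, 12.30 and 9.54, so Krt18 kept its level on B1 replicate 3 and Krt8 did not (6.69 ± 0.75, and 7.59 without replicate 3).

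Alox15, a lipoxygenase of large peritoneal macrophages, was at 11.43, 11.39 and 9.08 against 3.59, 3.44 and 3.74 (7.04 ± 0.57, and 7.82 without B1 replicate 3). It was low on replicate 3, as were Ednrb (6.81 ± 0.52, and 7.55 without it) and Pf4 (4.65 ± 0.79, and 5.63). The FO values of Ednrb lay under the 25th percentile, so its difference and its place among the 10 are not exact, and its other probe sets differed by 1.97 and 1.49. Gng13, a gamma subunit of G proteins, was instead highest on replicate 3, at 10.80, 10.08 and 11.68 against 4.01, 3.49 and 3.96 (7.03 ± 0.54), but its other probe set differed by 0.09. Gnb3 shared this order of arrays. Robo1, the receptor of the guidance factor Slit, was higher by 6.85 ± 0.93, with FO replicate 2 at 6.58 above the other FO arrays at 3.20 and 3.66. Without FO replicate 2 it differed by 7.91 and without FO replicate 1 by 6.21, and its other probe sets differed by 1.54 and 1.02. Ahnak2, a large scaffold protein, was higher by 7.70 ± 0.57.

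The 10 largest falls were those of Tmem108, Cr2, Vpreb3, Fcer2a, Pcp4, Ccr6, Emid1, Myl4, Crisp3 and Sox4, from -6.08 to -4.68. Tmem108, a transmembrane protein, was at 5.57, 5.51 and 3.52 in B1 and at 11.21, 10.62 and 10.99 in FO cells (-6.08 ± 0.51, adjusted p = 2.1e-05, and -5.40 without B1 replicate 3). Its other probe sets differed by -1.69 and -0.38. Pcp4, a calmodulin regulator, was at 4.80, 5.14 and 5.06 against 10.20, 10.07 and 10.02 (-5.10 ± 0.21, adjusted p = 3.9e-07). Crisp3, a secreted cysteine-rich protein, was at 5.16, 4.79 and 5.03 against 10.02, 9.97 and 9.59 (-4.87 ± 0.33, adjusted p = 4.6e-06). The 3 genes were low on all B1 arrays. ABC, which share the spleen with FO cells, had a mean of 10.22 for Pcp4 and of 5.76 for Crisp3. Emid1 and Myl4, a myosin light chain, were both lower by 4.92, with errors of 0.31 and 0.37, and the other probe set of Myl4 differed by -0.14. Sox4, a factor of B cell progenitors, was lower by 4.68 ± 0.37, and its 8 probe sets ran from 0.03 to -4.68.

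The remaining groups place these genes. Of the 986 genes at least 2-fold higher in old B1 than in old FO cells, the mean of young B1 cells was closer to old B1 in 892 (90.5%), and that of ABC in 492 (49.9%). Of the 553 at least 2-fold lower, young B1 cells were closer to old B1 in 476 (86.1%) and ABC in 193 (34.9%). These shares describe genes chosen on the old B1 and FO arrays and carry no test. Young B1 cells share organ and cell type with old B1 cells, and ABC share organ and age with FO cells. Young B1 means were near those of old B1 cells for Tppp (11.97), Lmna (12.62) and Ctla4 (11.80), and ABC means lay between for the same genes (7.35, 8.74 and 9.06). Krt18 was at 9.95 and Gnb3 at 8.51 in young B1 cells, below the old B1 means of 12.18 and 11.25.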

How the data were processed

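RNA of sorted B cells was measured on 12 arrays, and the 6 of old B1 and old FO cells are compared here. The authors deposited linear intensity values. The tools RMA and affy are named per the submitters' processing notes, with version, order and settings not given in the sources used here. Each intensity was log2-transformed, so an effect of the deposited normalization carries over. Of 45037 probe sets, 34945 had 1 symbol in the platform annotation. The brightest of a gene's probe sets, by its mean of all 12 arrays, stood for the gene, which gave 18193 genes, with no filter on dim genes. Other probe sets of many named genes gave smaller differences, while those of some gave larger ones. Among the latter were Zfp318 (-2.63 to -4.47, against -1.75 for the brightest), Foxo1 (down to -1.35, against -0.68) and Cd22 (-1.16, against -0.59). Other probe sets are quoted in the text for only some genes.

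All 12 arrays were fitted in R 4.3.3 (lmFit and eBayes of limma 3.58.1) as 4 group means (8 residual and 2.37 prior degrees of freedom), and the contrast old B1 minus old FO was tested two-sided. Genes with an adjusted p (Benjamini-Hochberg) under 0.05 were called, and all adjusted p values in the text are those of limma. The number of arrays limits the precision.

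The members, the 37 gene lists and the genes named were chosen with earlier results of these data known. Of 569 listed genes 519 were measured. Genes were named by rule: the 10 largest called differences in each direction (groups not overlapping, higher group no dimmer than the probe set median, predicted, clone and receptor segment names passed over), up to 4 called members a list and direction with the lowest p, a set of core B cell genes, and defining markers of other cell types. Other list members were named where their count was 5 or fewer, with no value. Csf1r, S100a9, Krt8, Pf4, Xbp1, Irf4, Mki67, Tlr7, H2-Aa, Cd74, Tnfrsf13b and Tnfrsf13c were added after their values were seen. So were Gata6, Cd93, H2-Ab1, H2-Eb1, H2-DMa and H2-Ob.

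The main fit did not pair arrays by replicate number, and whether the numbers pair them could not be settled. The fit was also tested on simulated data for this comparison, over 18193 genes: of 50 genes changed by a log2 of 1, 30 were called, of 50 changed by 2, 45 were called, and 6 unchanged genes were called. The simulation changed far fewer genes than the 2988 called here and held no outlying array, so its recovery does not carry over. Promoter windows came from RefSeq (GRCm38.p6). Scripts ran in Python 3.11.15 with matplotlib 3.10.9.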

Additional observations from a re-analysis of the deposited data

How the results depend on the processing

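The count of 2988 called genes stayed within 1.5 times under 18 of 21 alternatives. It was 1455 (911 higher, 544 lower) when the 6 compared arrays were fitted alone, 5001 (2563 and 2438) with limma array weights and 1706 (1007 and 699) at an adjusted p under 0.01. With the replicate number as a block (replicate block) 2570 genes were called, 1458 of them at least 2-fold. Same-numbered arrays had correlations of their deviations of 0.228, -0.391 and -0.39. Arrays of different numbers correlated up to 0.435, a value reached by the arrays that stood apart, old B1 replicate 3 and old FO replicate 2. Because those arrays weigh on every deviation in groups of 3, these correlations can neither show nor exclude pairing by number. Leaving out 1 array gave 2098 to 3555 called genes, and 1278 to 1719 of at least 2-fold, a count that no alternative moved by over 1.5 times. A set of 153 called genes was followed across the settings, and most of them are named with values above. It also held Adgre1 and C1qb, not named above, and Sirpa, named with no value. Of the 153, 125 were called under all 21 alternatives, 28 lost the call under at least 1, and 0 changed direction. Most of these losses came from fitting the 6 arrays alone (26 genes) and from the stricter threshold (11 genes). The fit of 6 arrays has fewer degrees of freedom and takes its spread from the compared groups only. Mean correlations with the own group were 0.9419 to 0.9689 in old B1 and 0.9794 to 0.9873 in old FO cells. They were 0.9905 to 0.9948 on the young B1 and ABC arrays, whose closer agreement enters the main fit. With the probe set of the largest spread, Spn, Zeb2 and Syk lost theirs, and under the replicate block Il10, Cd86 and Csf1r did. Genes near 0 that were not called changed sign: Klf2 to 0.10 with array weights, 0.04 with cyclic loess, 0.02 with repeated quantile normalization, 0.28 with the 75th percentile as a covariate, 0.03 without both arrays that stood apart and from -0.35 to 0.37 without 1 array; Ms4a1 ran from -0.07 to 0.01 and S1pr1 from -0.03 to 0.13 without 1 array; and Ighm to 0.01 without both arrays. The causes of these changes were not tested. At 3 arrays a group, changes near a log2 of 0.5 were mostly missed in the simulation, which called 4 of 50. With few changed genes and no array that stood apart, the simulation differs from these data, so this share does not carry over.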
